A study of Mus musculus with 6 samples.

Results

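Genes that prepare peptides for MHC class I molecules were examined in bone marrow CD34-KSL cells of wild-type (WT) mice and in libraries labelled Elovl6 knock out (KO). The set holds 10 genes out of 51826 in the deposited table. They were taken by symbol and comprise the peptide transporter subunits Tap1 and Tap2, the loading factors Tapbp and Pdia3, and the immunoproteasome subunits Psmb8, Psmb9 and Psmb10. The class I light chain B2m, the peptide-trimming enzyme Erap1 and the class I regulator Nlrc5 complete it. Of these, 5 lie on chromosome 17 (Tapbp, Psmb9, Tap1, Psmb8 and Tap2) and 5 elsewhere, and all 10 were expressed well enough to be tested. Expression was measured by RNA sequencing in 2 WT and 4 KO libraries. CD34-KSL cells carry Kit and Sca-1 but neither CD34 nor markers of mature lineages, and most long-term blood stem cells are found among them. Elovl6 is an enzyme that elongates saturated fatty acids, and the comparison asks what its loss does to gene expression in these stem cells. The labels used here name no strain, age, treatment or number of animals, nor the part of Elovl6 that was removed. Whether each library is a different animal is not stated either, and the p-values therefore reflect a spread between libraries that may be technical.

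Cells show fragments of their own proteins on MHC class I molecules. The proteasome cuts the proteins, and under interferon or in blood cells its 3 catalytic subunits Psmb5, Psmb6 and Psmb7 can be replaced by the immunosubunits Psmb8, Psmb9 and Psmb10. Tap1 and Tap2 carry the peptides into the endoplasmic reticulum, where Erap1 trims them. Tapasin, the product of Tapbp, and the disulfide isomerase encoded by Pdia3 help to load them onto a heavy chain held by B2m. Nlrc5 is a transactivator that acts at class I promoters through a shared enhancer. Several of these genes sit inside the histocompatibility region of chromosome 17.

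Total counts assigned to genes ran from 2121240 to 5137628 per library, and KO replicates 3 and 4 were the shallowest. In these replicates the ribosomal RNA-like gene CT010467.1 took 24.0% and 31.0% of reads in genes, against 12.3% to 16.1% in the other 4 libraries. Elovl6 itself was at 30.6 and 38.3 CPM (counts scaled to a common library size with TMM factors) in the WT libraries and at 21.4, 12.7, 19.5 and 8.81 CPM in those of KO. It was thus still read in every KO library. Its ranges did not overlap, but its log2 fold change of -1.12 (SE 0.32) missed the threshold over all genes (adjusted p = 0.346, edgeR quasi-likelihood test), as did every other gene named below unless stated. All 10 markers listed for the stem cell fraction were tested and read in every library, with 6 below 0 and 4 above. The 4 above are Cd34 and Flt3, taken up below as marks of other cells, and Procr and Hlf, at 0.009 and 0.03. Kit, Procr, Mecom, Hlf, Fgd5 and Meis1 all had log2 fold changes between -0.09 and 0.03. Ly6a, which encodes the sort marker Sca-1, averaged 69.9 ± 7.3 CPM over WT and 46.0 ± 8.5 CPM over KO libraries with no overlap (log2 fold change -0.59, SE 0.20, adjusted p = 0.408, edgeR), and Slamf1, a stem cell surface marker, was at -0.49 (SE 0.46, adjusted p = 0.752, edgeR). Cd34 and Flt3, which mark cells outside a CD34-negative fraction, averaged 326 and 326 CPM over WT and 379 and 559 CPM over KO libraries, and Flt3 was at 0.78 (SE 0.25, adjusted p = 0.390, edgeR). Markers of B-lineage cells summed to 1074 CPM in KO replicate 1 and to 148 to 344 CPM in the other 5 libraries. Neutrophil markers reached 6815 CPM in KO replicate 4 against 54.1 to 1223 CPM elsewhere, and erythroid markers 2617 CPM there against 63.6 to 394 CPM. Markers of monocytes, macrophages and dendritic cells were at 1278 CPM in KO replicate 4 and at 399 to 549 CPM elsewhere. Most of the sum in KO replicate 4 came from 1 gene, Lyz2, at 897 CPM. Megakaryocyte and platelet markers summed to 132 and 128 CPM in the WT libraries and to less in each of KO (37.9 to 99.8 CPM), and T and NK cell markers to 38.5 and 40.4 CPM in WT and to more in each of KO (49.2 to 84.7 CPM). Stroma and endothelium markers were at 77.3 to 142 CPM over all libraries, of which 1 gene, Pecam1, gave 69.5 to 141 CPM. The part of these cells in the results below was not tested. Of the B-lineage markers 9 of 10 were tested, of the neutrophil and erythroid markers 8 of 8 each, of the monocyte list 8 of 10, of the platelet list 5 of 6, of the T and NK list 3 of 9 and of the stroma list 2 of 7, and 0 of them were at 0 in all libraries.

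No member was called different between KO and WT. Over all genes 19 of 11969 (0.159%) passed an adjusted p of 0.05 in the edgeR quasi-likelihood test, and 0 of the 10 members did. DESeq2 and limma-voom also called 0 members, where they called 0.727% and 0.0752% of all genes. An unadjusted p under 0.05 was reached by 0 members in edgeR and in DESeq2 and by 1 (B2m) in limma-voom, where 9.9%, 8.91% and 9.79% of all genes reached it in these tools. The log2 fold changes were all smaller than 0.3 in size, as were those of 61.8% of all tested genes. Of the 10 members 8 were below 0, where 49.0% of all tested genes were. All 10 intervals at 95% span no change, and together they run from 0.604 times to 1.42 times the WT level, so that a difference of 2-fold in either direction lies outside each of them. Smaller differences were not resolved with 2 WT libraries.

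**Figure D1:**
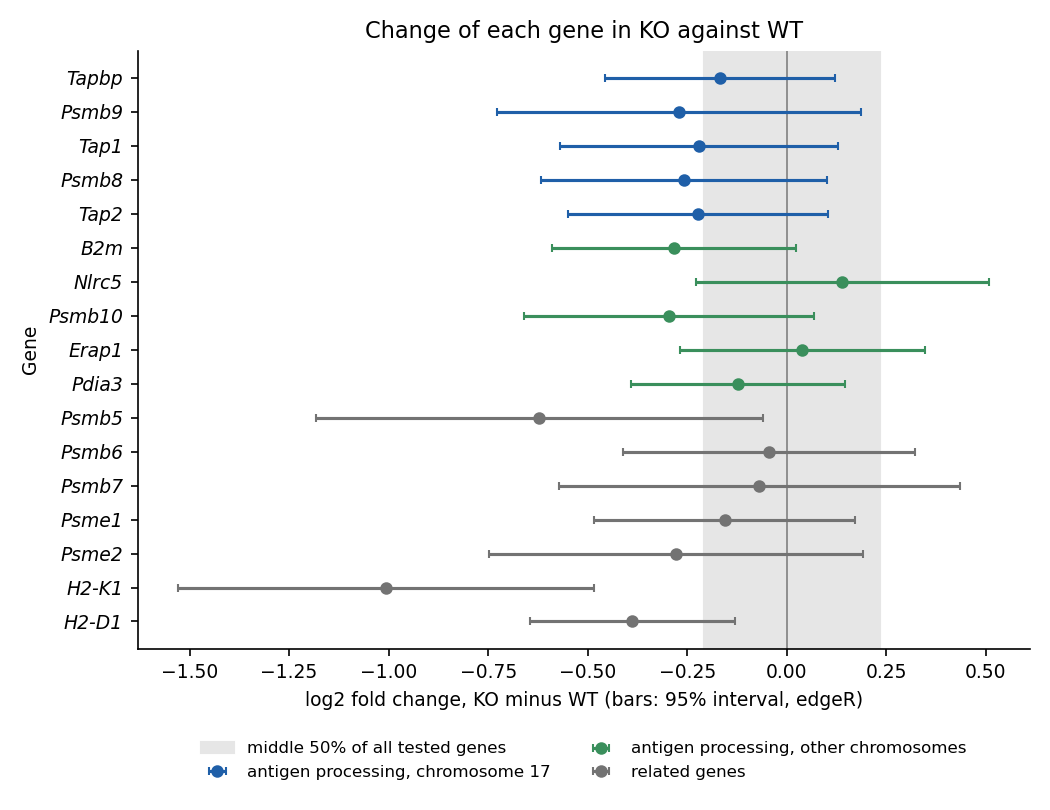
log2 fold change of each gene in KO against WT (x axis, log2 scale) with its 95% interval from edgeR, for 10 antigen processing genes and 7 related ones; grey marks the middle 50% of all 11969 tested genes. Every antigen processing gene has an interval that crosses 0, and the values run from -0.30 for Psmb10 to 0.14 for Nlrc5.

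The promoters of B2m, Tap1 and Erap1 are printed as examples that hold letters of the class I enhancer or of the interferon response element. Those of Pdia3 and Tapbp hold such letters too and are not printed. Of the 10 genes, 8 matched the RefSeq promoter table (GRCm38.p6, the assembly called mm10), which gives 250 bases before and 50 after each start. Nlrc5 and Tap2 were not matched. Capitals mark GAAANNGAAA, the core of the interferon-stimulated response element, TGACG, the core of the X2 box, and CCAAT, the core of the Y box, on either strand. Nlrc5 is known to act through X and Y boxes. The B2m promoter lies at chr2:122147437-122147736 on the plus strand, that of Tap1 at chr17:34187306-34187605 on the plus strand and that of Erap1 at chr13:74639603-74639902 on the plus strand. By these RefSeq starts Psmb9 starts 226 bases from Tap1 on the other strand, so the stretch printed for Tap1 also holds the start of Psmb9. Some RefSeq starts differ from the annotated gene spans used elsewhere here. For Psmb9 the start is at 34187330 and the span reaches 34187764. For Erap1 the start is at 74639853 and the span begins at 74639568. Bases before such a start can thus lie inside the annotated span.
B2m: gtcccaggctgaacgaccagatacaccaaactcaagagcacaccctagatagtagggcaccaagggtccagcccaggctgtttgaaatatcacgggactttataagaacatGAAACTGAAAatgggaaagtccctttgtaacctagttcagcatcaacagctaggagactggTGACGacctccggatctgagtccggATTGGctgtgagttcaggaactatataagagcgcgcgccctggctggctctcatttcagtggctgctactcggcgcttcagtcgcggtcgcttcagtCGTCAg
Tap1: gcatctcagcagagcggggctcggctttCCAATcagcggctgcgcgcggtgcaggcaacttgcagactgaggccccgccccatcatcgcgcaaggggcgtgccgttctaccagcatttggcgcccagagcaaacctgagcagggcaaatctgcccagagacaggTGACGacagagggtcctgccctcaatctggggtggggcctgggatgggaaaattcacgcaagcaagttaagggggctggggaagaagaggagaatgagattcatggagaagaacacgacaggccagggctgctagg
Erap1: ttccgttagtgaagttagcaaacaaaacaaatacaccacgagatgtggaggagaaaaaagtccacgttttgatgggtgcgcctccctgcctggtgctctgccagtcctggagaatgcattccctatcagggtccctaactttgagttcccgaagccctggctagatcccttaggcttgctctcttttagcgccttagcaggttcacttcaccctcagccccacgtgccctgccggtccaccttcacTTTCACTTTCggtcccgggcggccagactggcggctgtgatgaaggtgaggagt

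In B2m the interferon core begins 139 bases before the start, the X2 core 78 bases and the Y box core 53 bases before it. A further X2 core follows the start. Between Psmb9 and Tap1 an X2 core lies 86 bases before the Tap1 start and a Y box core 222 bases before it. Erap1 carries an interferon core that begins 4 bases before its start. Over the 8 promoters, GAAANNGAAA was present in 2 (B2m and Erap1), where 3.44% of 32851 promoters hold it. TGACG was present in 4 (B2m, Pdia3, Psmb9 and Tap1) against 20.8% of all promoters, and CCAAT in 5 (those 4 and Tapbp) against 37.4%. The Psmb9 and Tap1 windows overlap, so their matches are the same bases. GGGANTTCC, an NF-kB-like motif, was in 0 of the 8 and in 1.68% of all promoters. These are matches of letters and not evidence that a factor binds.

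Per kilobase of exon, B2m stood far above the rest, at 741 ± 45 CPM per kilobase in WT (SD, n = 2) and 609 ± 73 in KO (SD, n = 4). Pdia3 followed at 159.6 ± 10.3 in WT and 147 ± 8 in KO. After these came Tapbp (73.0 ± 7.5 in WT, 64.9 ± 3.9 in KO), Psmb8 (63.1 ± 0.3 and 52.7 ± 9.1), Tap1 (43.3 ± 3.6 and 37.1 ± 5.8) and Tap2 (36.0 ± 2.4 and 30.9 ± 3.1). Psmb10 (30.4 ± 0.6 and 24.8 ± 1.5), Nlrc5 (22.5 ± 2.9 and 24.8 ± 3.9), Erap1 (22.0 ± 0.2 and 22.5 ± 2.3) and Psmb9 (19.5 ± 1.3 and 16.1 ± 3.6) were lowest. B2m was above Pdia3 and Pdia3 above Tapbp in 6 of 6 libraries with no overlap of their ranges. Psmb8 was above Tap1 with no overlap too, while all other neighbours in the order overlapped over the libraries. The lengths are those of all annotated exons in the deposited table, 3.66 kilobases for Psmb9 for example, and the transcripts present may be shorter, which limits this order. Exon reads placed more than once are left out unless they span a junction, which limits it further for B2m, Psmb10, Psmb8 and Tap2.

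**Figure D2:**
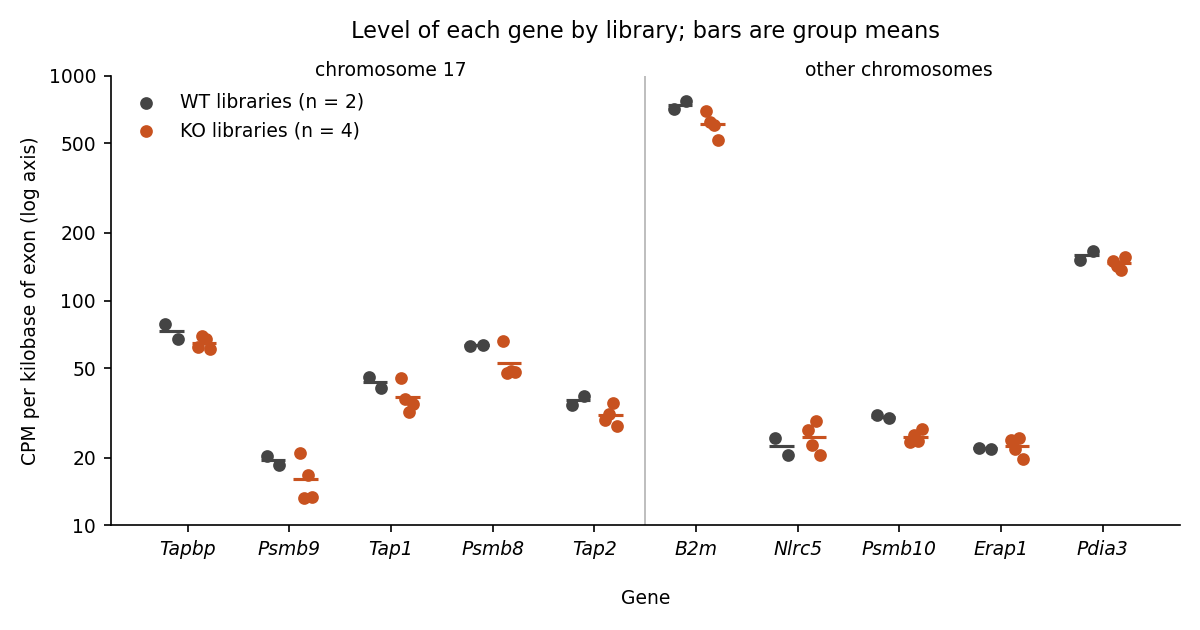
Level of each gene in CPM per kilobase of exon (log axis) in the 2 WT and 4 KO libraries (points) with the group means (bars), chromosome 17 genes on the left. The levels span from 13.2 for Psmb9 to 773 for B2m, and the ranges of WT and KO overlap for all genes but B2m and Psmb10.

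The immunoproteasome subunits were read at moderate levels in all libraries. Psmb8, which takes the place of the chymotrypsin-like Psmb5, was at 172 and 173 CPM in the WT libraries and at 181, 130.5, 133 and 132 CPM in KO replicates 1 to 4. KO replicate 1 exceeded both WT libraries and the other 3 KO libraries lay below them, so the groups overlap. The log2 fold change was -0.26 (SE 0.16, adjusted p = 0.625, edgeR). Over single omissions it ran from -0.40 without KO replicate 1 to -0.21 without KO replicate 2. Psmb9, the substitute of Psmb6, was at 74.6 and 68.0 CPM in the WT libraries and at 76.5, 48.4, 61.4 and 48.9 CPM in KO. Again KO replicate 1 was highest of all and the other KO libraries were below WT, with a log2 fold change of -0.27 (SE 0.21, adjusted p = 0.701, edgeR). Over single omissions that value ran from -0.44 without KO replicate 1 to -0.18 without KO replicate 2. Psmb10, the substitute of Psmb7, is encoded on chromosome 8 (105935735 to 105938444, mm10). It was at 52.6 and 51.1 CPM in the WT libraries and at 40.1, 43.0, 40.5 and 45.5 CPM in KO replicates 1 to 4. All KO libraries lay below both WT libraries, and yet the difference of -0.30 on the log2 scale (SE 0.16) missed the threshold (adjusted p = 0.593, edgeR). Psmb10 counts were the smallest of the set, from 93 to 206 per library.

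The 2 subunits of the transporter, which work as a pair, were compared next. Tap1 (chromosome 17, 34187553 to 34197225) was at 251 and 223 CPM in the WT libraries and at 249, 199, 175 and 189.9 CPM in KO replicates 1 to 4. KO replicate 1 lay between the WT libraries and the other KO libraries lay below both, with a log2 fold change of -0.22 (SE 0.16, adjusted p = 0.681, edgeR). It was -0.13 without WT replicate 1 and -0.34 without KO replicate 1. Tap2 (chromosome 17, 34203527 to 34216321) was at 129.7 and 143 CPM in the WT libraries and at 111, 119, 132 and 105 CPM in KO. Here KO replicate 3 lay between the WT libraries, and the log2 fold change was -0.22 (SE 0.15, adjusted p = 0.649, edgeR). Per exon length, Tap1 was read 1.34 and 1.08 times as often as Tap2 in WT, and 1.55, 1.16, 0.915 and 1.25 times as often in KO. The mean log2 ratio of Tap1 to Tap2 was 0.26 in both genotypes, with no test.

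Loading and trimming factors were described next. Tapbp, at 33915899 to 33929288 on chromosome 17, was at 258 and 223 CPM in WT and between 202 and 228 CPM in KO, with a log2 fold change of -0.17 (SE 0.13, adjusted p = 0.706, edgeR). It was -0.06 without WT replicate 1 and -0.27 without WT replicate 2. Pdia3, on chromosome 2, was at 478 and 524 CPM in the WT libraries and at 472, 448, 429.7 and 490.4 CPM in KO (log2 fold change -0.12, SE 0.12, adjusted p = 0.771, edgeR), which was -0.19 without WT replicate 1 and -0.06 without WT replicate 2. In both genes 3 of 4 KO libraries were below both WT libraries and 1 lay between them. The SD of log2 CPM over the KO libraries was 0.087 for Tapbp and 0.084 for Pdia3, next to 0.083 for Psmb10, the least variable of the set, where the median was 0.18 over tested genes read at least as highly as the lowest member and 0.26 over all tested genes. Erap1, on chromosome 13, was at 161 and 159 CPM in the WT libraries and at 175, 159.7, 179 and 143 CPM in KO, so that KO libraries lay on either side of WT (log2 fold change 0.04, SE 0.14, adjusted p = 0.949, edgeR).

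B2m (chromosome 2, 122147686 to 122153083) had the smallest unadjusted p of the set, 0.0661 in edgeR. It was at 610.3 and 665 CPM in the WT libraries and at 598, 535, 517 and 444 CPM in KO replicates 1 to 4. Every KO library was below both WT libraries, KO replicate 1 by a narrow margin, and the log2 fold change was -0.28 (SE 0.14, adjusted p = 0.544, edgeR). B2m and Psmb10 were the 2 members of 10 whose ranges did not overlap, where 20.3% of all tested genes had such ranges and 10.3% had them with KO lower. Both had KO lower. The members' share of 2 in 10 is near the background in either direction. It is above that with KO lower, but rests on 2 genes and was not tested. Nlrc5 (chromosome 8, 94434356 to 94527272) was the gene with the highest value, at 0.14 (SE 0.17, adjusted p = 0.815, edgeR), but at 0.28 without WT replicate 1 and 0.01 without WT replicate 2. It was at 208 and 174 CPM in the WT libraries and at 227, 193, 247 and 174 CPM in KO, with KO replicates 1 and 3 above both WT libraries. Nlrc5 and its class I target B2m therefore lay on opposite sides of 0, neither past the threshold.

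Of the chromosome 17 genes all 5 were below 0, and of those elsewhere 3 of 5. The median log2 fold change was -0.22 (from -0.27 to -0.17) on chromosome 17 and -0.12 (from -0.30 to 0.14) elsewhere. Over all tested genes 49.0% were below 0 with a median of 0.0085, and over the 626 tested genes of chromosome 17 50.8% were below 0 with a median of -0.0036. The chromosome 17 members are not independent points, since Psmb9, Tap1, Psmb8 and Tap2 follow each other within 34.3 kilobases and share libraries. By library, the mean deviation of the 5 chromosome 17 genes from their WT mean was -0.06 in KO replicate 1 and -0.29, -0.24 and -0.37 in KO replicates 2 to 4 on the log2 scale. That of the other 5 genes was -0.03, -0.13, -0.07 and -0.21. The gap between both groups was 0.03 and -0.03 in the WT libraries, against -0.02, -0.16, -0.17 and -0.17 in those of KO. In KO replicate 1 the chromosome 17 genes split, with Tap1, Psmb8 and Psmb9 at 0.07 to 0.10 and Tap2 and Tapbp at -0.29 and -0.23, so their median deviation was 0.07 where the mean was -0.06. By the mean, KO replicate 1 stood nearest to WT in both groups. Without it the chromosome 17 median was -0.34 and that elsewhere -0.15, with 0 members past the threshold (smallest adjusted p = 0.448, edgeR). Tap1, Psmb8, Psmb9 and B2m then reached an unadjusted p under 0.05 in edgeR, as did 9.05% of all genes in that fit. Without KO replicate 2, 3 or 4 alone, 0 members did. KO replicate 1 was picked as nearest to WT in these same genes, so its removal favours larger differences and is no support for them. KO replicate 1 is also the library with the most B-lineage transcripts, and their part in these values was not tested. In bulk RNA, fewer cells of a type and less RNA per cell cannot be told apart.

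**Figure D3:**
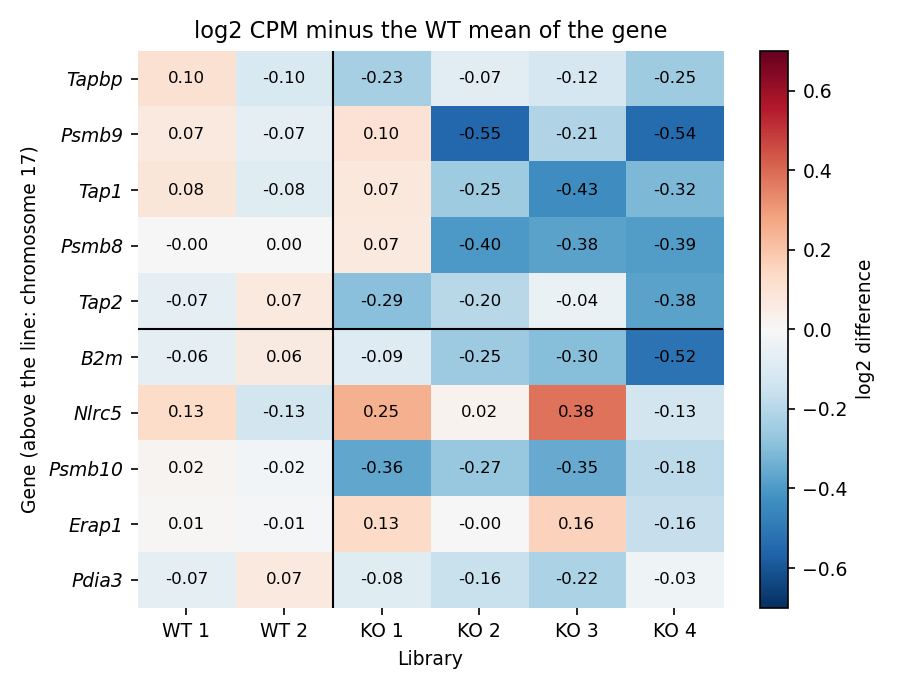
log2 CPM of each gene (rows) in each library (columns) minus the mean of the 2 WT libraries, with chromosome 17 genes above the line. KO replicate 1 is near or above 0 for Psmb9, Tap1 and Psmb8 and KO replicates 2 to 4 are below 0 there, while Nlrc5 is highest in KO replicate 3 at 0.38.

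The balance of immunosubunit to constitutive RNA was read as a ratio within each library, which does not depend on how libraries are scaled. It does not show which subunits the proteasomes hold. The sizes of the ratios rest on the lengths of all annotated exons and on few reads of Psmb5. Psmb5 had 41 to 120 counts per library, and 68.5% of its exon reads were placed uniquely. Per exon length, Psmb8 was read 2.26 and 1.76 times as often as Psmb5 in WT and 3.18, 2.93, 2.09 and 2.09 times as often in KO. The mean log2 ratio was 1.00 ± 0.25 in WT (SD, n = 2) and 1.34 ± 0.32 in KO (SD, n = 4), and the difference of 0.34 (SE 0.24) gave p = 0.4 in an exact two-sided permutation test over libraries (0.533 adjusted over 3 ratios). Psmb5 itself was at 24.2 and 31.3 CPM in the WT libraries and at 18.2, 14.2, 20.2 and 20.1 CPM in KO (log2 fold change -0.62, SE 0.25, adjusted p = 0.476, edgeR). Psmb9 was read 0.354 and 0.295 times as often as Psmb6 in WT and 0.327, 0.246, 0.337 and 0.2 times as often in KO. That is a log2 difference of -0.25 (SE 0.22, exact permutation p = 0.533, the same after adjustment). Psmb10 was read 2.31 and 1.36 times as often as Psmb7 in WT and 1.22, 1.47, 1.80 and 1.49 times as often in KO, a log2 difference of -0.25 (SE 0.40, exact permutation p = 0.533, the same after adjustment). In all 3 ratios the WT libraries differ more from each other than their mean differs from that of KO. With 2 against 4 libraries the smallest two-sided p is 0.133, so no ratio could have passed.

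**Figure D4:**
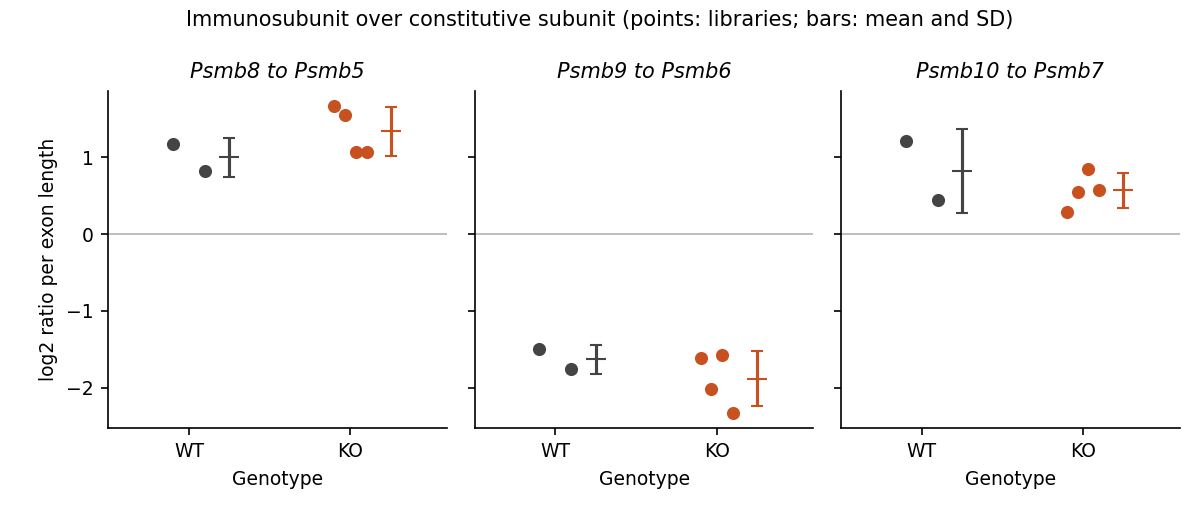
log2 ratio of the RNA of each immunosubunit to that of its constitutive counterpart per exon length (y axis) in WT and KO libraries (points), with mean and SD. The groups overlap in all 3 panels, and the means differ by 0.34, -0.25 and -0.25 on the log2 scale.

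The remaining parts of the pathway were compared as lists, and in edgeR 0 members of any of the 8 lists passed over all genes. Beside the counts below, 49.0% of all tested genes were below 0 and 9.9% had an unadjusted p under 0.05 in edgeR. Genes of a list share libraries and are not independent points, and the counts were not tested. Of 15 tested chaperones, translocon subunits and peptidases of peptide supply and class I assembly, 10 were below 0 (median -0.04), with 3 at an unadjusted p under 0.05. Among them Hspa5, the main Hsp70 chaperone of the endoplasmic reticulum, averaged 379 ± 3 CPM over 2 WT and 593 ± 61 CPM over 4 KO libraries (SD), a log2 fold change of 0.65 (SE 0.14, adjusted p = 0.167, edgeR). Hspa5 was called by DESeq2, which called 0.727% of all genes, and not by limma-voom, which called 0.0752%. Lnpep, an aminopeptidase related to Erap1, was at 182 ± 24 and 235 ± 18 CPM (0.38, SE 0.14, adjusted p = 0.438, edgeR). The other of these, Mr1, a class I-like molecule that presents metabolites, was lower, at 32.5 and 33.1 CPM in the WT libraries and 13.7 to 26.5 CPM in KO (-0.69, SE 0.27, adjusted p = 0.452, edgeR). Of the 3 constitutive catalytic subunits all were below 0, Psmb6 at -0.04 and Psmb7 at -0.07. Of the other 11 subunits of the 20S core 7 were below 0 (median -0.12), of 9 activators and assembly factors 7 (median -0.19), and of 19 subunits of the 19S particle 16 (median -0.07). Of these 3 lists 0 genes had an unadjusted p under 0.05 in edgeR, and DESeq2 and limma-voom called 0. Psme1 and Psme2, which form the interferon-inducible PA28 activator, were at -0.16 and -0.28 on the log2 scale, and Psmg1, an assembly chaperone, at -0.34 (SE 0.20, adjusted p = 0.613, edgeR). Only 45.0% of the exon reads of Psme2 were placed uniquely. Psma5 and Psma1 of the core were at -0.28 and -0.19, and Psmc2 and Psmd8 of the 19S particle at -0.21 and -0.19.

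Regulators upstream of these genes lay on both sides of 0. Of all tested genes 51.0% were above 0 and 9.9% had an unadjusted p under 0.05 in edgeR. Of 14 receptors, kinases and transcription factors of interferon signalling 10 were above 0 (median 0.08) and 1 had an unadjusted p under 0.05. Ifngr2, a chain of the interferon-gamma receptor, averaged 27.0 ± 3.9 CPM over WT and 42.5 ± 5.6 CPM over KO libraries (0.66, SE 0.21, adjusted p = 0.390, edgeR). Ifngr1, the other chain, went the other way, at 187 ± 23 and 156 ± 23 CPM (-0.26, SE 0.16, adjusted p = 0.624, edgeR). Stat2, a signal transducer of type I interferon, was at 0.35 (SE 0.18, adjusted p = 0.551, edgeR). Of 9 factors that bind the class I and class II enhancer 4 were above 0 (median -0.04), 2 with an unadjusted p under 0.05. These were Creb1, which binds the X2 box (0.47, SE 0.16, adjusted p = 0.408, edgeR), and Nfya, a Y box binder (0.32, SE 0.13, adjusted p = 0.477, edgeR). Nfyb and Nfyc, listed with Nfya, were below 0, at -0.17 and -0.25. DESeq2 and limma-voom called 0 genes in both lists.

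The class I heavy chains that take up the peptides were both below 0. H2-K1 was at 1833 and 1868 CPM in the WT libraries and at 1100.0, 1066, 523 and 994 CPM in KO (log2 fold change -1.01, SE 0.24, adjusted p = 0.241, edgeR). DESeq2 called it, as it did 0.727% of all genes. H2-D1 averaged 1131 ± 62 CPM over WT and 865 ± 56 CPM over KO libraries (-0.39, SE 0.12, adjusted p = 0.372, edgeR). Per exon length H2-K1 was read 0.990 and 0.926 times as often as B2m in WT and 0.607, 0.657, 0.334 and 0.738 times as often in KO. For H2-D1 the same ratio was 0.594 and 0.589 in WT and 0.526, 0.540, 0.524 and 0.628 in KO. The counts leave out exon reads placed more than once unless they span a junction. Of the exon reads, 46.5% of those of B2m, 97.1% of those of H2-K1 and 93.9% of those of H2-D1 were placed uniquely. This limits what the sizes of these ratios mean. The ratios were chosen after their values were seen and were not tested.

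In the genome the run from Psmb9 to Tap2 lies among class II genes. Of the 5 nearest tested genes on each side 5 were above 0 and 5 below, 4 had an unadjusted p under 0.05 (9.9% of all tested genes did), and 1 passed the threshold (0.159% of all tested genes, and 5 of 626 on chromosome 17). That gene was H2-Ea-ps, a class II gene annotated as a polymorphic pseudogene in GENCODE M21, 127 kilobases away, which had 0 counts in both WT libraries and averaged 17.7 CPM in KO (adjusted p = 0.00795, edgeR). Nearer to the run, H2-DMb1, a chain of the class II loading factor, averaged 34.5 CPM over WT and 11.5 CPM over KO libraries (adjusted p = 0.408, edgeR), and H2-Aa, a class II chain, 54.8 and 88.9 CPM (adjusted p = 0.296, edgeR). Within 1 Mb of the middle of the run 81 genes were tested and 2 were called, H2-Ea-ps and the meiotic gene Msh5. That is a higher share than 19 of 11969 over all genes and 5 of 626 over chromosome 17, and the difference was not tested.

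**Figure D5:**
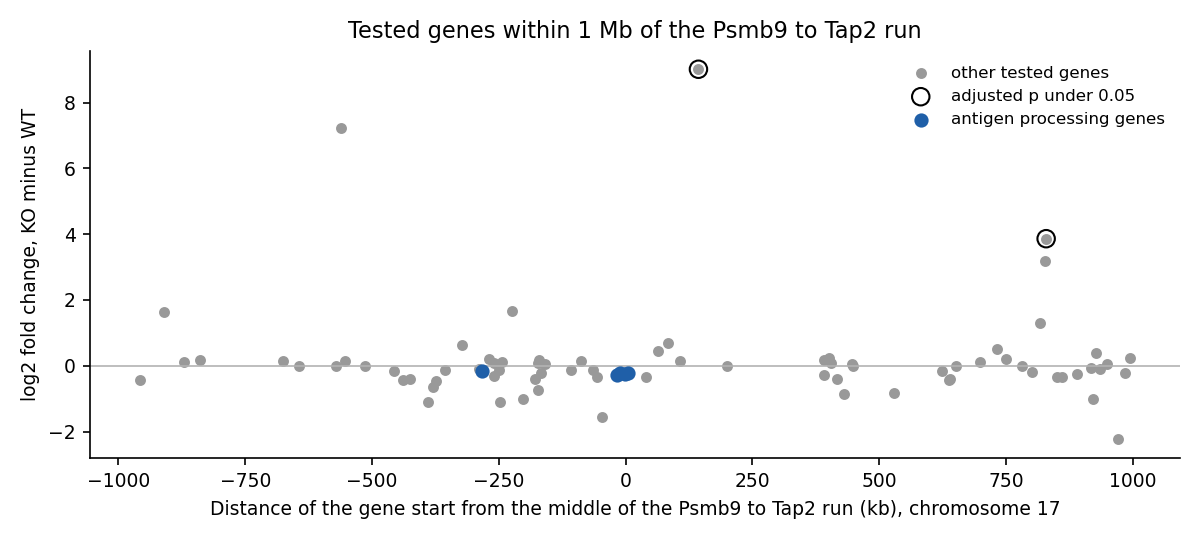
log2 fold change in KO against WT (y axis) of the 81 tested genes on chromosome 17 by the distance of their start from the middle of the Psmb9 to Tap2 run (x axis, kb); circles mark the 2 called genes. The antigen processing genes lie between -0.27 and -0.17, while genes around them reach both higher and lower; fitted values of genes with 0 counts in WT depend on the prior count and are no bounds.

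Reads placed in introns were counted separately in the deposited table. B2m and Psmb10 had 0 uniquely placed intron reads in all 6 libraries, and the other 8 genes had some. Nlrc5 had the most, between 35.5 and 36.1 intron reads per 100 exon reads in WT and between 29.9 and 49.1 in KO. Of the 8 genes 2 had ranges that did not overlap, both higher in KO, where 12.4% of 6995 genes with at least 50 exon reads in each library had such ranges (9.28% higher in KO). Tapbp was between 3.97 and 5.55 in WT and between 6.23 and 12.3 in KO, and Pdia3 between 4.92 and 6.97 in WT and between 7.29 and 12.3 in KO. The median over those 6995 genes was 25.5 and 24.1 in the WT libraries and ran from 21.2 to 33.1 in those of KO, and its part in these values was not tested. KO replicate 3 was highest in Tapbp, in Pdia3 and in this median.

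Several genes of the set share reads with other places in the genome. Of the exon reads of B2m 46.5% were placed uniquely, of Psmb10 58.4%, of Psmb8 70.7% and of Tap2 80.6%, while the other 6 were between 94.2% and 100%. With reads placed more than once included, the log2 fold change was -0.26 for B2m, -0.19 for Psmb8, -0.20 for Tap2 and -0.36 for Psmb10, and Psmb10 then had an unadjusted p of 0.0377 (adjusted p = 0.497, edgeR). The annotated spans of Psmb9 and Tap1 overlap by 212 bases on opposite strands, although their RefSeq starts lie 226 bases apart. The use of strand in counting is not given, so reads in the overlap cannot be told apart. In the authors' deposited table the signed folds of KO against WT run from -1.23 for Psmb10 to 1.10 for Nlrc5, and the adjusted p is 1 for each of the 10 genes.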

How the data were processed

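Per the labels' protocols, Trizol RNA went into a directional library kit. The build is mm10 (submitters' processing notes). How reads were aligned and counted, and whether strand was used, is not given in the sources used here. In the 1 deposited table, 51826 genes have read counts in columns named by library. Per the file headers these are expression values. They (100% of values) are the sum of uniquely placed exon reads and of junction reads placed more than once. The deposited table also holds unique, total, junction and intron read counts, exon lengths, the authors' p-values and a signed fold score, positive where KO is higher. Another 48 columns of values per library were not used. Positions count from 0 in the table and were raised by 1. Of the 10 genes, 8 have the same position in GENCODE M21.

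Counts were tested with edgeR 4.0.16 (R 4.3.3, limma 3.58.1) over all genes: filterByExpr, TMM factors, a quasi-likelihood F test of genotype alone over 6 libraries, and Benjamini-Hochberg adjustment over 11969 genes at 0.05. The SE is the fold change over the square root of F, and 95% intervals use the fit's degrees of freedom. log2 CPM have a prior count of 2. DESeq2 1.42.0, limma-voom, other filters, other read classes and left-out libraries were alternatives. Ratios between genes were tested by exact permutation with scipy 1.17.1. The tests were tried on simulated counts. The genes, lists and tests were chosen with earlier results of these data known. Named genes are the 10 genes, Elovl6, Psmb5, Psmb6, Psmb7, Psme1, Psme2, H2-K1, H2-D1 and, of each list, the 2 smallest p. Mr1, Ifngr1, Nfyb, Nfyc, the single stem cell markers and neighbours other than those past the threshold were chosen after their values were seen. Of the list symbols 1, Nrdc, was not matched.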

Additional observations from a re-analysis of the deposited data

Results flagged for a closer look

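Psmb8 stood apart in 1 KO library. KO replicate 1 was at 181 CPM and the other 3 KO libraries at 130.5 to 133 CPM, so the gap to the nearest library was 0.950 of the range of the KO group, above the 95% critical value of Dixon's test for 4 samples. In 21 such values examined, chance gives about 1 in 20. KO replicate 1 also had the highest Psmb9 (76.5 CPM) and Tap1 (249 CPM) of the KO libraries and the highest sum of B-lineage markers (1074 CPM against 178 to 344 CPM in the other KO libraries). The part of those cells in the value was not tested.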

How the results depend on the processing

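Under the 15 alternatives to the gene fit, 0 members were called in every one. The count of called genes over all genes, 19 in the edgeR fit, was 87 with DESeq2, 9 with limma-voom, 307 with no filter, 2 and 10 without WT replicates 1 and 2, 12, 11 and 30 without KO replicates 2, 3 and 4, and 33 without KO replicates 3 and 4 together. The 5 chromosome 17 genes were below 0 under each alternative. Leaving out single libraries, the chromosome 17 median ran from -0.34 (without KO replicate 1) to -0.19, and that of the other members from -0.19 (without WT replicate 1) to -0.058 (without WT replicate 2), against -0.22 and -0.12 with all libraries; the cause was not tested. Erap1, at 0.04 with all libraries, was at -0.0037 without KO replicate 1 and -0.0029 without KO replicate 3, and reached 0.094 without KO replicate 4. The difference of the log2 ratio of Psmb10 to Psmb7 ran from -0.64 to 0.13 and turned sign without WT replicate 1. Over the same omissions that of Psmb8 to Psmb5 ran from 0.16 to 0.52 and that of Psmb9 to Psmb6 from -0.38 to -0.10. A replicate block, fitted over libraries 1 and 2 of each genotype, called 0 members and 34 genes, with medians of -0.16 and -0.11. Across genes the differences between libraries 1 and 2 of WT and of KO had a correlation of -0.09, so the numbers were not taken as pairs. With 2 WT libraries, differences smaller than the intervals cannot be resolved.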

Other observations

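Profiles over the 6 libraries were compared by the root mean square difference of centred log2 CPM. Tap1 and Psmb8 were the closest pair of members at 0.085, and Nlrc5 and Erap1 were each other's nearest member at 0.107. Psmb9 was nearer to Psmb8 (0.115) than to Tap1, with which it shares a promoter region. Nlrc5 and Psmb10 were farthest apart at 0.302. Among 9612 other genes of at least 10 CPM, those nearest to the mean profile of the 3 immunosubunits were Snd1 (0.0400), Fkbp1a (0.0410) and Arl2bp (0.0541), on chromosomes 6, 2 and 8, where the median gene was at 0.288. That mean does not stand for each subunit, since Psmb10 was the member farthest from Psmb9 (0.272). The nearest of 9612 genes over 6 libraries can be near by chance, and their likeness was not tested.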
